A study of Homo sapiens with 8 samples.

Results

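The messages of 9 genes of the MHC class I pathway were followed across 8 libraries of prostate cancer cells: HLA-B, HLA-C, HLA-E, HLA-F, B2M, TAP1, TAP2, TAPBP and NLRC5. They were picked by gene symbol from the tables of counts, which list 36779 genes. All 9 were found and all 9 passed the filter on low counts, as did 17869 genes in all. The libraries hold total RNA of DU145 and PC3, established cell lines of human prostate cancer that had been given an expression plasmid for circ0003553, an expression plasmid for circ0004592 or a negative control plasmid, of which each arm had its own. Both inserts are circular RNAs (circRNAs), closed loops made by back-splicing. In the titles, the circ0003553 arm bears the gene name RCAN3 and the circ0004592 arm STK3. Each line therefore gave 1 library with circ0003553, 1 with circ0004592 and 1 control for each, and all 8 groups of cells had received a plasmid. The labels give no replicate numbers and do not say that the control libraries of a line came from separate cultures, so the spread between them may be technical. The share of cells that took up the plasmid and the amount of circRNA made were not analysed here. In bulk RNA, fewer cells with a message and less of it per cell cannot be told apart.

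MHC class I molecules show peptides from inside the cell to CD8 T cells and to natural killer cells. A heavy chain (from an HLA gene) pairs with the light chain beta-2 microglobulin, and the pair is filled in the endoplasmic reticulum, where the TAP transporter brings in peptides cut by the proteasome and tapasin holds the empty molecule at the transporter. NLRC5 is the class I transactivator, which acts at class I promoters through the factors bound at their conserved boxes. Interferons raise the pathway through STAT and IRF factors, and low class I is a common trait of prostate cancers.

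The promoters of the members are shown because the same short letters recur in them. Of the 9 members, 7 had a window in the RefSeq promoter table (build GRCh38.p14), in 8 windows, since TAP1 has 2 start sites. The 250 bases before each start were searched on both strands for 3 cores of the interferon-stimulated response element, GAAANNGAA, GAAANGAAA and GAANNGAAA. The third was added after the members' promoters were seen, and the cores can overlap. With the first 2 cores, 5 of the 7 members had a match. HLA-B and HLA-C match the third alone, and with it all 7 had at least 1, a count that the choice of the third core fixed. Over all 35116 windows of the table, 6.88% held the first core, 2.69% the second, 6.56% the third and 12.4% any of them. Each stretch below reads 5′ to 3′ on the strand of its gene, with the letters of the core, or of its reverse complement, in capitals.
HLA-B: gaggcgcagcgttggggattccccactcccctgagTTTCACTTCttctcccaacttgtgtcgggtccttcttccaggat
HLA-C: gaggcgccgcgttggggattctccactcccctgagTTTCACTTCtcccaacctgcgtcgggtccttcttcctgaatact
HLA-F: ccagagtTTCTCTTTCtctccca
B2M: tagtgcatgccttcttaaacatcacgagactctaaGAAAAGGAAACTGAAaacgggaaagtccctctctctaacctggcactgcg
TAP1: ggccgctTTCGATTTCGCTTTCccctaaa
TAP2: ggctgggGAAGCGAAAGCGAAagctgcc
TAPBP: tttggagGAAAGTGAAAGTGAAaggag

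The HLA-B stretch lies at chr6:31357291-31357369 (minus strand) and the HLA-C stretch at chr6:31272200-31272278 (minus strand). In these heavy chain genes the core holds the same 9 letters and lies at a like distance from the start, from base -155 to -147 in HLA-B and from -151 to -143 in HLA-C. The HLA-F stretch is at chr6:29723272-29723294 (plus strand), with its core from -155 to -147. The B2M stretch is at chr15:44711338-44711422 (plus strand), TAP1 at chr6:32853816-32853844 (minus strand), TAP2 at chr6:32838782-32838809 (minus strand) and TAPBP at chr6:33314079-33314105 (minus strand). These last 4 genes each had 2 overlapping cores, nearest the start in TAPBP (from -20 to -6) and TAP2 (from -63 to -50). The stretches of HLA-F, TAP1, TAP2 and TAPBP are short because the deposited gene models have an exon of the same gene there.

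Other letters were shared by fewer members. The Y box core CCAAT, read by NF-Y, stood in the windows of HLA-B (3 matches), HLA-C (4), HLA-F (2), B2M (1) and TAP1 (1), against 32% of all windows. TGACG, the CRE core found in the X2 box, stood in HLA-B, HLA-C, B2M and TAP2, against 21.2%. The NF-kB core GGGNNTTCC stood in HLA-B and TAPBP, against 5.78%, and the STAT core TTCNNNGAA in the second TAP1 window alone, against 6.57%. A match is a description of these letters, and binding was not measured.

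**Figure D1:**
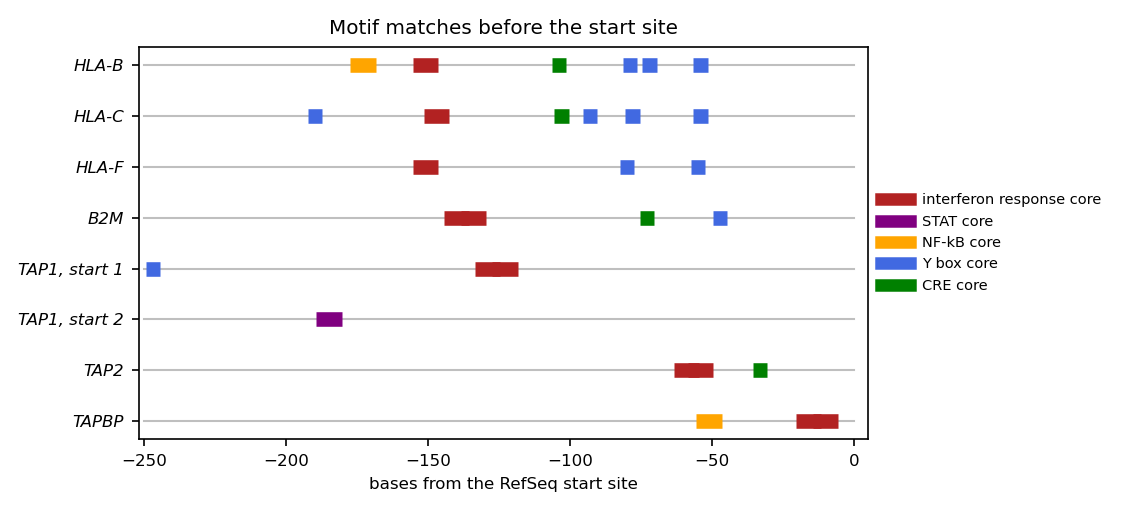
Matches of the motif cores in the 250 bases before the RefSeq start of 7 members; the x axis is the distance from the start in bases, each line is 1 window and each block is 1 match. Interferon response cores (red) lie between -155 and -143 in HLA-B, HLA-C and HLA-F and within 63 bases of the start in TAP2 and TAPBP.

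Total counts were between 33444940 and 49926342 per library. Of the counts from 1 to 20, 64.9% to 66.1% were even, the pattern left when a fragment adds 2 reads, so counting intervals use read pairs (counts divided by 2). Levels are given as CPM, counts scaled by the library's effective size, and per gene length as RPKM, as deposited. The epithelial genes KRT8, KRT18 and EPCAM were present in all 8 libraries, CDH1 (E-cadherin) was at 40.9 to 64.5 CPM in DU145 but at 0.735 to 1.17 CPM in PC3, and CTNNA1, known to be deleted in PC3, was at 3.87 to 4.64 CPM in PC3 against 390.5 to 426 CPM in DU145. Of 11 leukocyte and blood markers, 7 are listed, and they summed to between 0.757 and 1.20 CPM in DU145 libraries and between 0.306 and 0.390 CPM in those of PC3, with PTPRC (CD45) at 0 to 2 counts.

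Control PC3 cells had less of most class I messages than control DU145 cells, with HLA-E as the exception. Of the 9 members, 7 were lower and 1 higher in the PC3 controls (edgeR quasi-likelihood test, Benjamini-Hochberg adjusted p under 0.05, 2 libraries against 2), while 40.9% of all tested genes were called lower and 41.6% higher, so a call between the lines is common.

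NLRC5 (chr16:56989485-57083531, plus strand, hg38 as are all gene positions) had 282 and 224 counts in the DU145 controls and 17 and 25 counts in the PC3 controls, that is 6.17 and 5.85 CPM against 0.474 and 0.697 CPM. The log2 difference, PC3 minus DU145, was -3.35 ± 0.20 (SE, adjusted p = 5.18e-12). This transactivator thus showed the widest gap of the 9, on the fewest counts.

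Among the classical heavy chains, HLA-C (chr6:31268749-31272130, minus strand) stood at 632 and 597 CPM in the DU145 controls and at 230.3 and 222 CPM in PC3. HLA-B (chr6:31353872-31357188, minus strand) stood at 359 and 357 CPM in DU145 and at 204 and 199 CPM in PC3. Their log2 differences were -1.44 ± 0.04 and -0.83 ± 0.04, and the lines did not overlap. The nonclassical heavy chain HLA-E (chr6:30489467-30494205, plus strand), which presents leader peptides of other class I chains to the NKG2A receptor, went the other way: 189 and 185 CPM in DU145 against 305 and 302 CPM in PC3, a log2 difference of 0.70 ± 0.04 (adjusted p = 9.49e-12). HLA-F (chr6:29722775-29738528, plus strand), another nonclassical chain, had 24.0 and 23.2 CPM in DU145 and 9.11 and 7.89 CPM in PC3 (log2 difference -1.48 ± 0.09).

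B2M (chr15:44711477-44718877, plus strand), the light chain, was close in the lines: 177 and 177 CPM in the DU145 controls and 164 and 168 CPM in the PC3 controls, with a log2 difference of -0.09 ± 0.04 that missed the threshold (adjusted p = 0.0604). With genes of at least 5 CPM alone tested, it passed (-0.12, adjusted p = 0.0182).

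In the loading complex, TAP1 (chr6:32845209-32853978, minus strand), one chain of the transporter, had 32.3 and 33.1 CPM in DU145 and 13.3 and 12.9 CPM in PC3 (log2 difference -1.32 ± 0.07). TAP2 (chr6:32821833-32838780, minus strand), the other chain, had 190.1 and 183 CPM against 59.6 and 55.0 CPM (-1.70 ± 0.05). TAPBP (chr6:33299694-33314387, minus strand), which encodes tapasin, had 45.1 and 43.0 CPM against 34.8 and 31.6 CPM (-0.41 ± 0.07, adjusted p = 1.11e-05). All 3 were lower in both PC3 controls than in either DU145 control.

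In deposited RPKM, the order of the members also differed between the lines. RPKM divides by all exon bases of the gene model, 2975 for HLA-E, 2507 for HLA-C and 3012 for HLA-B. Their longest coding transcripts (GENCODE 29) have 2601, 1554 and 1547 bases. An order between genes therefore depends on the length used, and which heavy chain led was not settled here. In the DU145 control of the circ0003553 arm HLA-C came first at 255 RPKM, then HLA-B at 120.4, HLA-E at 64.2, TAP2 at 30.1, B2M at 29.4, TAPBP at 9.03, TAP1 at 7.14, HLA-F at 5.60 and NLRC5 at 0.504 RPKM. TAP2 and B2M, neighbours in that order, changed places in the other DU145 control (28.7 and 29.3 RPKM). Their gene models have 6390 and 6089 exon bases, but their longest coding transcripts have 5684 and 1705. A like RPKM of TAP2 and B2M therefore does not show like amounts of message. In the PC3 control of the same arm HLA-E led at 103 RPKM, followed by HLA-C at 92.8, HLA-B at 68.3, B2M at 27.3, TAP2 at 9.43, TAPBP at 6.95, TAP1 at 2.94, HLA-F at 2.12 and NLRC5 at 0.0386 RPKM. As a share of the summed RPKM of the 4 heavy chains measured, HLA-C made up 57.3% and 56.2% in the DU145 controls and 34.8% and 34.3% in the PC3 controls, and HLA-E 14.4% and 14.6% against 38.8% and 39.4%.

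With either circRNA, the whole set rose in PC3. All 9 members were called higher with circ0003553, where 15.6% of all tested genes were, and all 9 with circ0004592, where 13.2% were. NLRC5 and TAP1 had the widest changes and TAPBP the smallest. The comparison asks which messages change in a line when the circRNA is supplied. Each circRNA has 1 library per line, which was tested against both controls of its line and is assumed to vary as the controls do, whereas the fold against the control of its own arm carries a counting interval and no test.

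**Figure D2:**
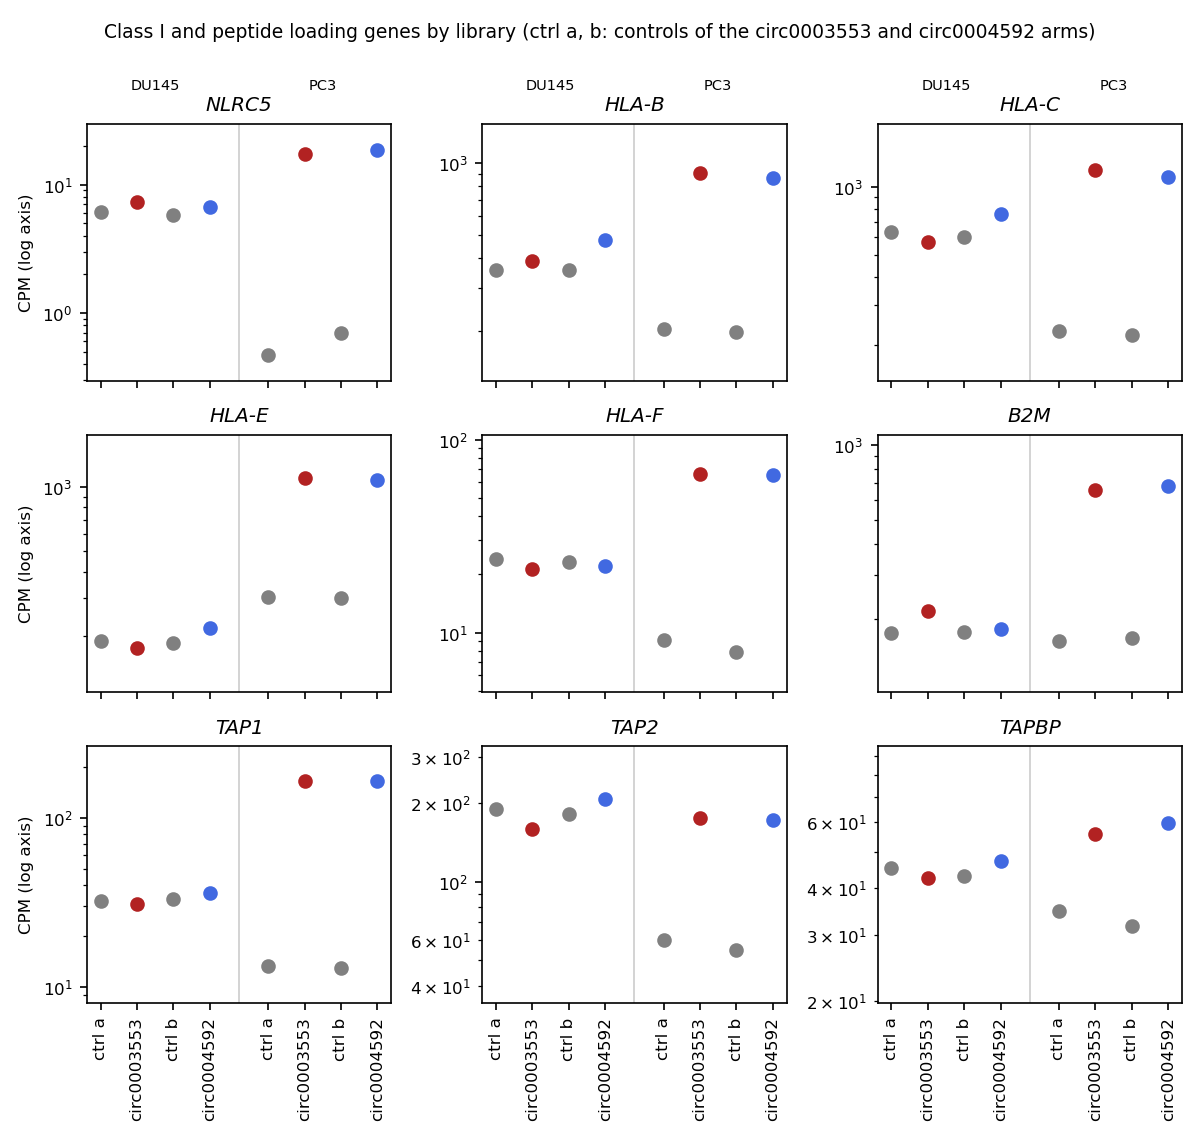
CPM of the 9 members in each of the 8 libraries, on log axes whose range differs between panels; grey points are controls (a, circ0003553 arm; b, circ0004592 arm), red points circ0003553 and blue points circ0004592. In PC3 (right of the line) both circRNA libraries lie above both controls in every panel, and in DU145 the 4 libraries of a gene lie close together.

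NLRC5 went from 17 counts (0.474 CPM) in its own control to 568 counts (17.4 CPM) with circ0003553, and from 25 counts (0.697 CPM) to 613 counts (18.6 CPM) with circ0004592. The folds were 36.7 (95% Clopper-Pearson interval on read pairs 19.5 to 91.2) and 26.7 (15.7 to 54.3). Against both controls, the log2 changes were 4.89 ± 0.19 (adjusted p = 1.43e-13) and 4.98 ± 0.19 (adjusted p = 9.19e-14). Both circRNA libraries are far above both controls, but the few control counts give the fold a wide interval, and on log2(RPKM + 1) in limma which understates the change of low genes, the values were 1.17 and 1.24.

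The classical heavy chains rose to between 4.35 times (HLA-B, circ0004592) and 5.16 times (HLA-C, circ0003553) their own controls. HLA-B had 204 CPM in its own control and 906 CPM with circ0003553, and 199 CPM and 863 CPM in the circ0004592 arm. The log2 changes of HLA-B were 2.17 ± 0.05 (adjusted p = 9.81e-18) and 2.10 ± 0.05 (adjusted p = 1.82e-17). HLA-C went from 230.3 to 1189 CPM and from 222 to 1108 CPM, with log2 changes of 2.39 ± 0.05 and 2.29 ± 0.05. By RPKM, HLA-C was then the 77th and 87th highest of all 36779 genes listed, against the 514th and 540th in the controls.

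Of the nonclassical chains, HLA-E went from 305 to 1094 CPM with circ0003553 and from 302 to 1074 CPM with circ0004592 (log2 changes 1.85 ± 0.05 and 1.82 ± 0.05). HLA-F went from 9.11 to 66.0 CPM and from 7.89 to 65.8 CPM (2.96 ± 0.09 for circ0003553 and 2.95 ± 0.09 for circ0004592). HLA-E stood above HLA-C in CPM and in RPKM in the PC3 controls and had a smaller log2 change than HLA-C. Their shares of the summed RPKM of the 4 heavy chains crossed. HLA-E stood at 31.8% and 32.7% and HLA-C at 41.0% and 40.0% in the circRNA libraries. Whether the shares cross depends on the gene lengths used, but the log2 changes do not. HLA-B kept a share of 25.6% to 26.0% in all 4 PC3 libraries.

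B2M went from 164 to 657 CPM with circ0003553 and from 168 to 683 CPM with circ0004592. Its log2 changes were 1.98 ± 0.05 (adjusted p = 8.53e-17) and 2.04 ± 0.05 (adjusted p = 5.29e-17), near those of HLA-B. The summed RPKM of the 4 heavy chains was 9.79 and 9.35 times that of B2M in the controls. It was 10.7 and 9.85 times with the circRNAs, so the ratio of heavy to light chain RPKM moved little. The size of that ratio depends on the gene lengths used.

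TAP1 went from 13.3 to 165.9 CPM in the circ0003553 arm and from 12.9 to 165 CPM in the circ0004592 arm. The folds against the own control were 12.5 (10.9 to 14.3) and 12.8 (11.1 to 14.6), and the log2 changes 3.66 ± 0.07 and 3.65 ± 0.07. Its partner TAP2 went from 59.6 to 176 CPM and from 55.0 to 172 CPM (1.62 ± 0.06 and 1.59 ± 0.06). The transporter works as a pair of both chains, and their order in RPKM turned over, though TAP1 stayed below TAP2 in CPM. TAP1 had 2.94 RPKM beside 9.43 RPKM of TAP2 in the circ0003553 control, and 35.2 beside 26.7 RPKM with circ0003553. The TAP2 value carries a limit, since another gene covers part of its exons. TAPBP had the smallest change, from 34.8 to 55.8 CPM and from 31.6 to 59.8 CPM (0.75 ± 0.08, adjusted p = 4.60e-07, and 0.85 ± 0.08, adjusted p = 7.85e-08).

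The median log2 change of the 9 members was 2.17 with circ0003553 and 2.10 with circ0004592, against -0.01 over all tested genes in both. The members summed to 0.103% and 0.101% of all counts in the PC3 controls and to 0.420% and 0.415% in the circRNA libraries. The CPM ratio of the circ0003553 library to the circ0004592 library ranged from 0.934 (TAPBP) to 1.07 (HLA-C), and the ratio of the controls ranged from 0.680 (NLRC5) to 1.16 (HLA-F). The difference between the inserts was not tested. With both circRNA libraries set against both controls in a fit of 4 groups, all 9 members were again called higher (11.2% of all genes), with log2 changes from 0.80 ± 0.09 (TAPBP) to 4.93 ± 0.19 (NLRC5). That comparison reuses the same 4 libraries, and its circRNA libraries hold different inserts, so they are not replicates of 1 treatment. On deposited RPKM with limma, all 9 were still called, but the calls over all genes with circ0003553 split into 1471 higher and 1839 lower, against 2789 and 2252 here.

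**Figure D3:**
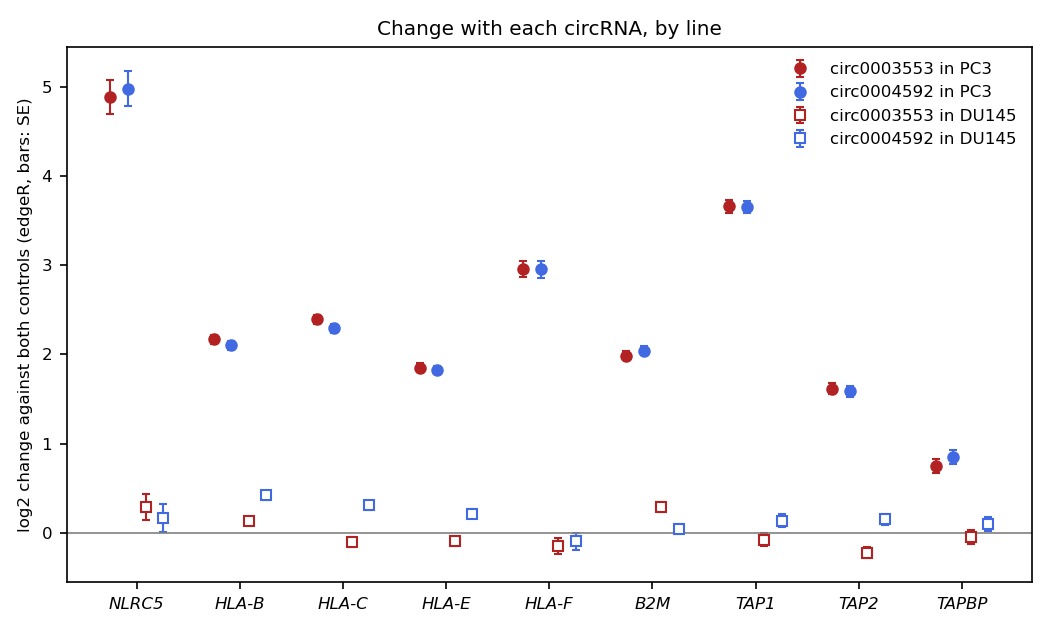
Log2 change of each member with each circRNA against both controls of the line (edgeR; bars are SE); filled circles are PC3 and open squares DU145. PC3 values run from 0.75 (TAPBP) to 4.98 (NLRC5), and DU145 values lie between -0.22 and 0.42.

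In PC3 with a circRNA, most of these messages stood above their level in control DU145 cells. In RPKM of the same table, the PC3 library with circ0003553 stood at 5.56 times the DU145 control for HLA-E, 4.94 times for TAP1, 3.57 times for B2M, 2.71 times for NLRC5, 2.64 times for HLA-F, 2.43 times for HLA-B and 1.81 times for HLA-C. TAPBP was at 1.19 times and TAP2 at 0.889 times. In the circ0004592 arm the ratios ran from 0.926 (TAP2) to 5.70 (HLA-E), and TAP2 was again the member that stayed below the DU145 control. These ratios are single libraries against single libraries, with no test. That of TAP2 carries a limit, since its reads cannot be told apart from those of an overlapping gene on the same strand.

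**Figure D4:**
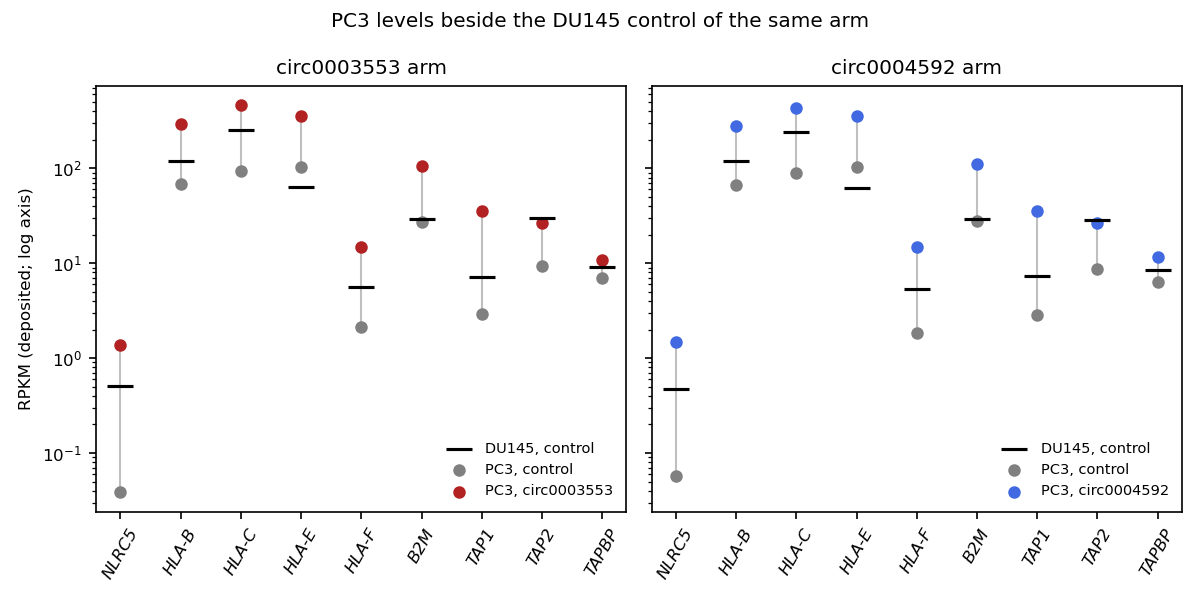
Deposited RPKM (log axis) of each member in the PC3 control (grey), the PC3 circRNA library (red or blue) and the DU145 control (black bar) of each arm. Grey lines join the PC3 libraries. The circRNA point lies above the DU145 bar for each member except TAP2 in both arms, and TAP2 shares exon bases with another gene.

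In DU145 the log2 changes of the members lay between -0.22 and 0.42. They were above 0 for 3 of the 9 with circ0003553 (median -0.08) and for 8 of the 9 with circ0004592 (median 0.15). With circ0003553, B2M was called higher and TAP2 lower, 2 of 9, where 10.5% of all genes were called in either direction. With circ0004592, HLA-B, HLA-C and HLA-E were called higher, 3 of 9, where 9.89% of all genes were called. None of the other members passed in either comparison.

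B2M had 177 CPM in the control and 216 CPM with circ0003553, against 177 and 182 CPM in the circ0004592 arm. Its log2 changes were 0.29 ± 0.05 (adjusted p = 0.00162) and 0.04 ± 0.05 (adjusted p = 0.698). TAP2 had 190.1 CPM and 159.6 CPM in the circ0003553 arm, and 183 and 207 CPM in the circ0004592 arm. The log2 change with circ0003553 was -0.22 ± 0.06 (adjusted p = 0.0235), a call that was lost without either control library (adjusted p = 0.176 without that of the circ0003553 arm and 0.0600 without the other).

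HLA-B went from 357 to 478 CPM with circ0004592 and stood at 359 and 392 CPM in the circ0003553 arm. Its log2 change with circ0004592 was 0.42 ± 0.05 (adjusted p = 4.32e-05), and with circ0003553 0.13 ± 0.05 (adjusted p = 0.110). HLA-C had 597 CPM in the control and 761 CPM with circ0004592, a log2 change of 0.31 ± 0.05 (adjusted p = 0.000941), but 632 and 571 CPM in the circ0003553 arm (-0.11 ± 0.05, adjusted p = 0.220). HLA-E had 185 and 217 CPM in the circ0004592 arm (0.21 ± 0.05, adjusted p = 0.0128) and 189 and 175 CPM in the circ0003553 arm (-0.10 ± 0.05). The HLA-E call was lost without the control of the circ0004592 arm (adjusted p = 0.0780). These heavy chains thus had their highest DU145 value in the circ0004592 library, while HLA-C and HLA-E had their lowest in the circ0003553 library.

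The remaining members had no call in DU145. NLRC5 had 6.17, 7.33, 5.85 and 6.74 CPM, given as control and circRNA library of the circ0003553 arm and then of the circ0004592 arm. TAP1 had 32.3, 31.0, 33.1 and 35.9 CPM, TAPBP 45.1, 42.7, 43.0 and 47.3 CPM, and HLA-F 24.0, 21.3, 23.2 and 22.1 CPM in the same order. Their log2 changes lay between -0.15 ± 0.09 (HLA-F, circ0003553) and 0.29 ± 0.15 (NLRC5, circ0003553). The circRNA libraries of DU145 were also taken as a pair, in a fit that counts differences between the inserts as spread. HLA-C, HLA-E, TAP1, TAP2 and TAPBP had log2 changes of opposite sign with the inserts. The pair gave no call among the 9 members in edgeR (1.05% of all genes in either direction). HLA-B was nearest at 0.28 ± 0.09 (unadjusted p = 0.00728, adjusted p = 0.197), and it was the 1 member with an unadjusted p under 0.05. DESeq2 called 0 of 9 there too. With limma on RPKM, none of the 5 DU145 calls of the single circRNAs passed, nor did any other gene.

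The difference between the lines was itself tested. For circ0003553 the change in PC3 exceeded that in DU145 for all 9 members, where 13.4% of all genes were called in that direction, and for circ0004592 likewise for all 9, where 10.6% were. The differences of log2 changes ran from 0.80 ± 0.11 (TAPBP, adjusted p = 2.57e-05) to 4.60 ± 0.26 (NLRC5, adjusted p = 8.32e-11) for circ0003553. For circ0004592 they ran from 0.75 ± 0.11 (TAPBP, adjusted p = 6.66e-05) to 4.82 ± 0.26 (NLRC5, adjusted p = 5.87e-11). On RPKM with limma, all genes called for circ0003553 split into 959 higher and 1006 lower, against 2390 and 1651 here.

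Other genes of peptide supply and loading rose with the members in PC3. Of 14 listed, 10 rose and none fell with circ0003553, and 11 rose and none fell with circ0004592, with medians of 0.75 and 0.76 on the log2 scale against -0.01 for all genes, of which 15.6% and 13.2% were called higher. The list was chosen with earlier results of these data known. PSMB9 and PSMB8, inducible subunits of the proteasome, had the widest changes, while PSMB10, the other inducible subunit, rose by 0.58 and 0.69. PSMB9 went from 2.03 to 21.8 CPM with circ0003553 and from 1.39 to 22.1 CPM with circ0004592, log2 changes of 3.66 ± 0.16 and 3.69 ± 0.16. PSMB8 went from 29.5 to 135 CPM and from 29.4 to 138 CPM (2.20 ± 0.06 and 2.23 ± 0.06). The trimming enzymes LNPEP (1.53 and 1.59) and ERAP2 (1.42 and 1.40) and the proteasome activator subunit PSME2 (1.16 and 1.15) followed. In DU145, 0 of the 14 were called with circ0004592, where 9.89% of all genes were called in either direction. With circ0003553, 3 of the 14 fell, where 6.3% of all genes were called lower. These were PSME1 (-0.41 ± 0.05), PSME2 (-0.30 ± 0.06) and CALR (-0.18 ± 0.05), calreticulin, a chaperone of the loading complex. The change in PC3 exceeded that in DU145 for 9 of the 14 with circ0003553 (13.4% of all genes) and for 10 with circ0004592 (10.6%).

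Of 14 transcription factors that act on class I genes or shape their chromatin, 6 rose and 2 fell in PC3 with circ0003553, and 6 rose and 1 fell with circ0004592. Over all genes, 15.6% were called higher and 12.6% lower with circ0003553, and 13.2% and 11.7% with circ0004592, so the falls are near the share of all genes. STAT2, which carries type I interferon signals to the nucleus, went from 33.9 to 220.2 CPM and from 35.9 to 222 CPM (log2 changes 2.66 ± 0.06 and 2.67 ± 0.06). IRF9, which binds DNA in the same complex, went from 27.7 to 172 CPM with circ0003553 and reached 176 CPM with circ0004592 (2.60 ± 0.07 and 2.63 ± 0.07). IRF1 rose from 27.0 to 108 CPM and from 26.3 to 99.8 CPM (2.02 ± 0.07 and 1.90 ± 0.07), IRF2 by 0.84 and 0.89, and RFX5, a subunit of the RFX complex at the X box, by 0.62 and 0.51. CREB1 rose by 0.35 and 0.43. NFYA, a subunit of NF-Y, fell by 0.26 with each circRNA, and EZH2, a histone methyltransferase, fell by 0.18 with circ0003553. CIITA, the transactivator of class II genes, had 3.99 and 4.93 CPM in the circ0003553 arm and 4.10 and 5.37 CPM in the circ0004592 arm (0.29 ± 0.19 and 0.41 ± 0.19), with no call.

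The change in PC3 exceeded that in DU145 for 5 of the 14 factors with circ0003553 and for 6 with circ0004592, by the test between the lines (13.4% and 10.6% of all genes). In DU145, STAT2 was at 12.8 CPM in the control and 13.5 CPM in the circRNA library of the circ0003553 arm, and its log2 changes of 0.04 ± 0.09 and -0.24 ± 0.10 were not called. IRF9 rose with both, by 0.41 ± 0.09 and 0.53 ± 0.10, and RFX5 fell by 0.31 and 0.26. IRF1 fell by 0.33 with circ0003553. Of all genes in DU145, 4.24% were called higher and 6.3% lower with circ0003553, and 5.24% and 4.65% with circ0004592. In the controls, STAT2 was higher in PC3 than in DU145 (log2 difference 1.41 ± 0.07), while PSMB9 (-2.35 ± 0.15) and PSMB8 (-0.93 ± 0.06) were lower.

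**Figure D5:**
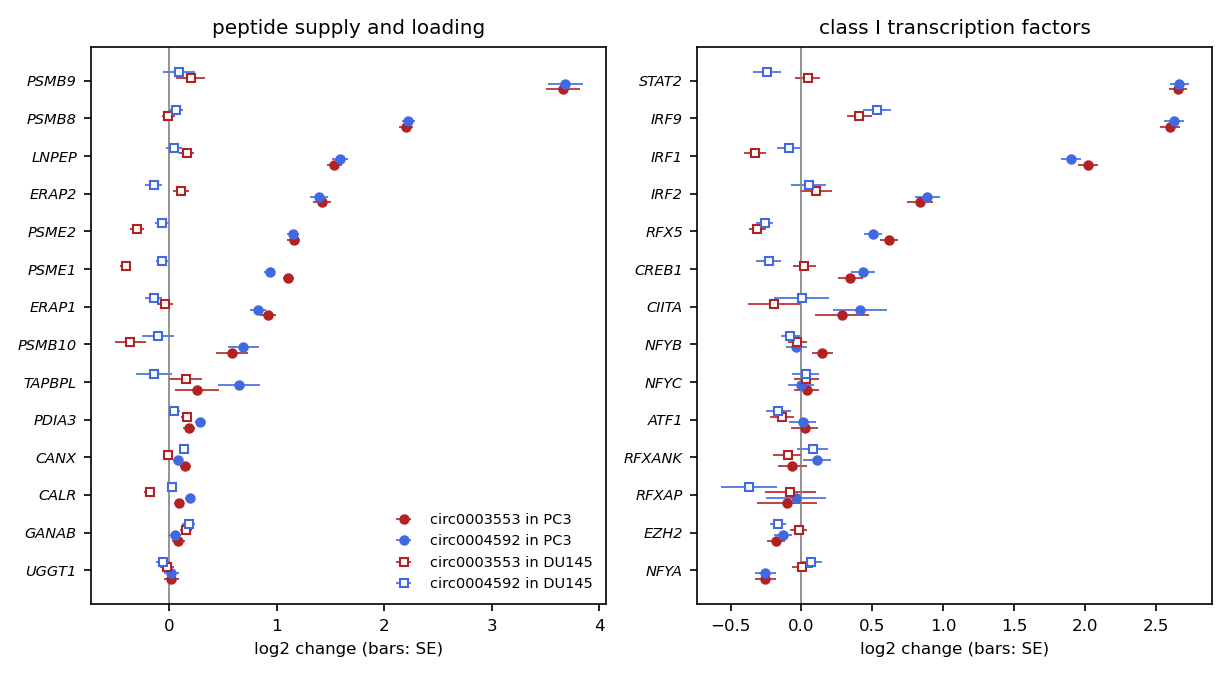
Log2 change (edgeR, bars are SE) of the genes of peptide supply and loading (left) and of class I transcription factors (right), ordered by the change with circ0003553 in PC3; filled circles are PC3 and open squares DU145. PSMB9 and STAT2 lead in PC3 at about 3.7 and 2.7, and DU145 values of the genes shown run from -0.41 (PSME1, circ0003553) to 0.53 (IRF9, circ0004592).

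Class I-like genes and stress ligands had median log2 changes of 0.60 with circ0003553 and 0.43 with circ0004592 in PC3. Of 16 listed, 14 were tested, and 7 rose with circ0003553 and 5 with circ0004592, while none fell (15.6% and 13.2% of all genes were called higher). HLA-G had 36 and 106 counts in control and circRNA library of the circ0003553 arm, and 54 and 170 counts in the circ0004592 arm (log2 changes 1.37 ± 0.35 and 2.04 ± 0.33). The class I pseudogene HLA-H rose by 0.91 and 1.07, HLA-J by 1.01 with circ0003553, the stress ligands MICB by 0.74 and 0.81 and RAET1E by 0.81 and 1.01, and MR1, which presents vitamin B metabolites, by 0.64 and 0.49. Reads of HLA-G, HLA-H and HLA-J can stem from the classical genes, which they resemble in sequence. In DU145, ULBP1 fell by 0.45 with circ0004592 and no other gene of the list was called with either circRNA. Of all genes there, 9.89% were called in either direction with circ0004592 and 10.5% with circ0003553.

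Class II messages were too scarce in PC3 for a change to be detectable in most. Of 11 class II genes, 5 were tested, and in PC3 those other than HLA-DMA (18 to 31 counts) had 0 to 10 counts per library. With circ0003553, 1 of them was called, CD74, the invariant chain, with 0 and 2 counts in the controls and 8 counts with circ0003553 (adjusted p = 0.0229), which is near the floor of 3 read pairs (6 counts), and with circ0004592 none was. The same gene had 15.3 to 16.4 CPM in the DU145 libraries. Of all genes in PC3, 15.6% were called higher with circ0003553 and 13.2% with circ0004592. Of 8 genes of class I turnover, 1 fell with each circRNA in PC3 and none rose: MARCH9 by 0.42 ± 0.15 with circ0003553 and TMEM127 by 0.23 ± 0.08 with circ0004592. A share of 1 in 8 is near that of all genes called lower (12.6% and 11.7%).

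Some members share exon sequence with other genes, and the strand setting of the counting is not given in the sources used here. The gene XXbac-BPG246D15.9 covers 32.3% of the exon bases of TAP2 on the same strand and held 83.7% to 91.4% as many counts as TAP2 in each library, so the reads of these genes cannot be told apart. XXbac-BPG248L24.12, opposite 18% of HLA-B, held 42.7% to 49.7% as many counts as HLA-B in each library. PSMB8-AS1, opposite 9.96% of TAP1, went from 3.15 to 20.8 CPM and from 2.87 to 21.1 CPM in PC3, well below TAP1 with the circRNAs. HLA-F-AS1, opposite 12.3% of HLA-F, had 8.25 and 10.5 CPM in the circ0003553 arm of PC3, where HLA-F had 9.11 and 66.0 CPM. HCG4P11, opposite 16.1% of HLA-F, went from 1.09 to 14.6 CPM with circ0003553 and from 1.09 to 14.1 CPM with circ0004592 in PC3, and RPL23AP1, opposite 5.92%, stood at 2.68 and 3.37 CPM in the circ0003553 arm. In the longest coding transcripts (GENCODE 29), windows of 50 bases shared with another gene made up 1.70% to 6.71% of the 4 heavy chains, 35.8% of TAP2 and none of B2M or NLRC5.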

How the data were processed

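Total RNA was depleted of ribosomal RNA and made into stranded paired libraries, per the labels' protocols. Per the submitters' processing notes, reads were trimmed with Trimmomatic 0.36 and the authors used featureCounts, Subread 1.5.1, edgeR 3.12.1 and hg38. The aligner, annotation release, strand setting and use of molecular identifiers are not given in the sources used here. The deposited tables hold raw read counts per gene and, separately, RPKM per gene computed by the authors, 1 pair of tables per arm. Genes that just one arm lists (5511, at most 14 counts) were given 0 in the other.

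Here, genes with at least 1 CPM in at least 2 libraries (17869) entered edgeR 4.0.16 (quasi-likelihood test, TMM scaling; R 4.3.3), with p-values adjusted by Benjamini-Hochberg over all of them at 0.05. The 8 libraries formed 6 groups of line and treatment (2 residual degrees of freedom), or 4 groups for both circRNAs (4 residual degrees of freedom). Each SE was worked back from the test, as the size of the log2 change over the root of F. The fit was run on simulated data in which all libraries had the same spread. That run therefore cannot check the assumption that a lone circRNA library varies as the controls do. Intervals are 95% Clopper-Pearson intervals and, like the floor of 3 read pairs, cover counting error only. Promoters were searched with Python 3.11.15 and pandas 2.3.3.

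All 9 members are named in each comparison, and from each list up to 5 genes past the threshold by size of change. Other genes (such as CIITA, CREB1, EZH2, PSMB10, CDH1 and the overlapping genes) were named after their values were seen. The members, lists and tests were chosen with earlier results of these data known. One further gene was taken off the transcription factor list and is not reported here. Alternatives were DESeq2 size factors, DESeq2 1.42.0, no filter, a filter of 5 CPM, limma 3.58.1 on log2 RPKM (plus 0.1 or 1), pairing by arm and leaving out each library.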

Additional observations from a re-analysis of the deposited data

Results flagged for a closer look

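For every member, the change in PC3 differed from that in DU145 for both circRNAs by the interaction test of edgeR. The difference of log2 changes (PC3 minus DU145) with circ0003553 was 4.60 for NLRC5, 3.74 for TAP1, 3.11 for HLA-F, 2.50 for HLA-C, 2.04 for HLA-B, 1.95 for HLA-E, 1.84 for TAP2, 1.69 for B2M and 0.80 for TAPBP. With circ0004592 it was 4.82 for NLRC5, 3.51 for TAP1, 3.05 for HLA-F, 2.00 for B2M, 1.98 for HLA-C, 1.68 for HLA-B, 1.61 for HLA-E, 1.44 for TAP2 and 0.75 for TAPBP. Each rests on 1 circRNA library per line, and both circRNAs share the controls of a line.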

How the results depend on the processing

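All 9 members stayed higher in PC3 with each circRNA, with both together and in the tests between the lines under every alternative run. In DU145, limma on RPKM gave 0 called members for circ0003553 and 0 for circ0004592 with either pseudocount, against 2 and 3. B2M with circ0004592 then turned to -0.00385 (pseudocount 0.1) and -0.00374 (pseudocount 1). Leaving out a control left 1 to 1 called members for circ0003553 in DU145. For both circRNAs in DU145, 1 member was called with no filter (HLA-B, adjusted p = 0.0475) and 0 to 3 with 1 library left out: 3 without the circ0003553 library and 2 without the circ0004592 library. Leaving out 1 library there gave HLA-C from -0.10 to 0.31, HLA-E from -0.10 to 0.22, TAP1 from -0.077 to 0.14, TAP2 from -0.22 to 0.15 and TAPBP from -0.045 to 0.10. Without 1 circRNA library, that fit sets the other circRNA alone against both controls. The ends of these ranges are therefore near the log2 changes of the single circRNAs, such as -0.11 and 0.31 for HLA-C. The difference between the inserts was not tested. Over all genes, DESeq2 called 2571 against 5041 for circ0003553 and 2264 against 4440 for circ0004592 in PC3. No paired analysis by replicate number was possible because the labels give none; pairing by arm called 9 members in PC3 and 0 in DU145. NLRC5 in the PC3 controls, at 17 and 25 counts, is where depth limits a fold most.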
